A study of Homo sapiens with 6 samples.

Results

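The tubulin genes described here were 10 genes of the deposited count table, namely the alpha tubulins TUBA1A, TUBA1B, TUBA1C and TUBA4A and the beta tubulins TUBB, TUBB2A, TUBB2B, TUBB3, TUBB4B and TUBB6. They were picked by symbol, all 10 were found among 26334 genes, and all 10 were among the 16117 genes that passed the filter on low counts. RNA was sequenced from MCF10DCIS.com, a human breast cell line of the MCF10A series that forms lesions like ductal carcinoma in situ in mice, in 3 libraries labelled shLuc and 3 labelled shWDR5. shLuc cells carried a pRSI vector in which the U6 promoter drives shLuc, a hairpin against luciferase used as the neutral control, and the UbiC promoter drives TagRFP and puromycin resistance, and shWDR5 cells carried the same vector with hairpins against WDR5. All cells, controls included, were selected with 3 µg/ml puromycin in medium with 5% horse serum. The study pooled its WDR5 hairpins, so the effect of a single hairpin cannot be told apart, and the labels do not say whether the 3 replicates were separate cultures, so p-values measure the spread between these libraries only. The comparison asks how the tubulin transcripts differed once WDR5, a scaffold subunit of histone methyltransferase complexes, was silenced.

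Microtubules are built from heterodimers of one alpha and one beta tubulin. Each subunit is encoded by several genes, called isotypes, whose products are nearly alike in the folded body and differ mostly in the acidic tail at the carboxyl end, where glutamate chains and other modifications are added and where motors and other proteins bind. Newly made tubulin is folded by prefoldin and the CCT chaperonin and then paired by the tubulin folding cofactors. Free dimers also lower the stability of tubulin mRNA while it is being translated, a feedback that depends on TTC5 and on the first residues of the nascent chain. TUBB3, TUBA1A and the TUBB2 pair are best known from neurons, whereas TUBB, TUBB4B, TUBA1B and TUBA1C are made in most dividing cells. TUBB3 is also studied in carcinomas in relation to taxanes, drugs that bind beta tubulin.

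The libraries held 38218108 to 57640167 counted reads, of which the 10 tubulin genes took 0.345% to 0.382% in shLuc and 0.308% to 0.332% in shWDR5. WDR5 itself was at 52.6, 48.5 and 51.3 CPM (reads of a gene relative to library size, scaled by the TMM factors of edgeR) in shLuc and at 23.4, 24.4 and 20.8 CPM in shWDR5. It was 2.22-fold lower (log2 fold change -1.15 ± 0.073 SE, edgeR quasi-likelihood adjusted p = 1.86e-07). Of 8 basal epithelial markers, all 8 were tested, and KRT5 and KRT17 were at mean levels of 820 and 2159 CPM in shLuc. The 10 most abundant genes took 5.74% to 6.09% of the counts in shLuc and 7.67% to 8.16% in shWDR5. The fibroblast marker LUM and the T cell marker CD3E were at 0 in every library. Replicate 1 stood apart in both groups. The chi-square per degree of freedom of its counts against replicates 2 and 3 was 14.3 to 18.2, and that between replicates 2 and 3 was 7.39 in shLuc and 7.15 in shWDR5. Without replicate 1 of both groups, a comparison added after the data were seen, 8 tubulin genes were again called, 5 higher and 3 lower. In bulk RNA, fewer cells of a type and less RNA per cell cannot be told apart.

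The sequences that distinguish the isotypes help in reading the counts. For the beta genes, the 75 coding bases at the end of the coding sequence, taken from the principal transcript in GENCODE release 29 (GRCh38) and running up to and including the stop codon, encode the acidic tail. They are printed 5′ to 3′ for the 2 most abundant beta genes and TUBB3, with the codons GAA and GAG, which encode glutamate, in capitals.
TUBB: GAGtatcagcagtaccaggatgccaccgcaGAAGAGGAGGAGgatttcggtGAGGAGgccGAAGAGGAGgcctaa
TUBB3: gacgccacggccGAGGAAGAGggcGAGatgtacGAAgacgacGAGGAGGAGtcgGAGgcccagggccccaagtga
TUBB4B: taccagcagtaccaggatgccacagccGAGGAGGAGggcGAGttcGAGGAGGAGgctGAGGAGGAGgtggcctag
Of the 25 codons, 10 were GAA or GAG in TUBB and in TUBB4B and 9 in TUBB3. TUBB3 ended in AAG, a lysine codon, and each of the other beta genes in a codon for alanine or glycine. At the other end, the first 4 codons encode the residues that the feedback reads. They were written ATGCGTGAGTGC in TUBA1A, TUBA1B and TUBA1C, ATGAGGGAAATC in TUBB and TUBB4B and ATGAGGGAGATC in TUBB3 and TUBB6. These beta spellings differ only in GAA against GAG, which encode the same residue. Whether the feedback had a part in the changes described below was not tested.

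Over the whole coding sequence, TUBA1A and TUBA1B were identical at 1318 of 1356 aligned bases (97.2%), TUBA1B and TUBA1C at 97.3%, and TUBB2A and TUBB2B at 98.1%. TUBB and TUBB6 were less alike, at 81.4%. Such similarity bears on counting, because a read that maps equally well to several genes may be dropped or misplaced, and how the authors treated such reads is not given in the sources used here. For transcript words of 100 bases, 22.3% of those of TUBA1A were also found in another of the 10 genes, against 32.1% for TUBA1B, 11.5% for TUBA1C, 54.4% for TUBB2A, 42.4% for TUBB2B and 0% for TUBB6. The main partner of TUBB3 was AC092143.1, a gene model that shared 89% of its 100-base words, and that of TUBA1B was AC011603.2, with 65.4%. The share of 100-base words found in no other gene was 11% for TUBB3, 28.9% for TUBA1B, 43.6% for TUBB2A and 53.8% for TUBB2B. It was 70.4% for TUBA1C, 72.6% for TUBA4A, 77.7% for TUBA1A, 79.6% for TUBB, 95.5% for TUBB4B and 100% for TUBB6. With 50-base words it ran from 10.6% for TUBB3 and 12.9% for TUBA1B to 99% for TUBB6, with 52% for TUBA1A. The read length is not given in the sources used here. Of the 100-base words of TUBB3, 5.15% were found in another of the 10 genes. The words were compared with GENCODE 29 transcripts on either strand, including gene models that overlap a member. STK16, whose exons overlap those of TUBA4A, held 25.6% of the 100-base words of TUBA4A. A read from such words need not map to several places. The share found in no other gene is therefore not the share of reads with a unique position. Whether AC092143.1 and AC011603.2 overlap TUBB3 and TUBA1B in the genome was not looked at. Among the deposited gene positions, only TUBA4A, TUBB4B and TUBB6 had exons overlapping another gene. Counts of genes with many shared words remain uncertain, but by how much was not tested.

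Among the 10 genes, 8 passed an adjusted p of 0.05 in the edgeR quasi-likelihood fit of all genes, 5 higher and 3 lower in shWDR5. TUBA1A, TUBB2A, TUBB3, TUBA4A and TUBB6 rose, and TUBA1B, TUBB4B and TUBA1C fell. The 2 without a call were TUBB and TUBB2B. Calls were frequent in this comparison, since 56.5% of all genes tested passed, 26.6% as higher and 29.9% as lower, so a share of 8 in 10 is to be read against that. The study also set a minimum fold change and expression level. With an adjusted p under 0.05, an absolute log2 fold change of at least 0.6 and, as applied here, a group mean above 0.5 RPKM (CPM divided by the exon length in kilobases) in at least one group, 18.3% of the genes passed, 7.9% as higher and 10.4% as lower. TUBA1A, TUBB2A and TUBB3 were the 3 members that passed them, all in the higher direction. The CPM of the 2 groups did not overlap for 8 of the 10 members, against 62.3% of all genes tested.

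**Figure D1:**
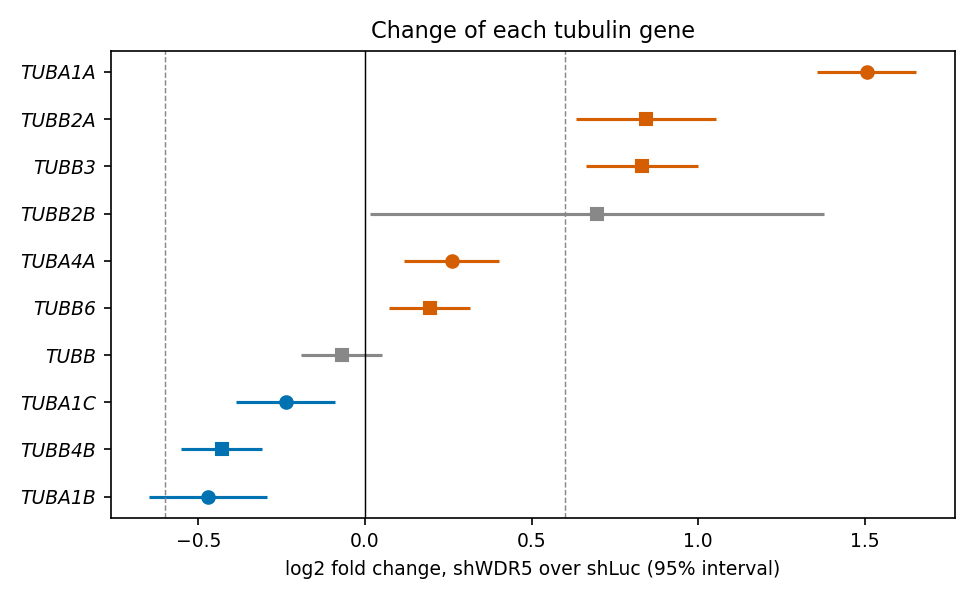
Log2 fold change of each tubulin gene in shWDR5 over shLuc on the horizontal axis, with its 95% interval; circles are alpha and squares beta tubulins, orange is called higher, blue called lower and grey not called, and dashed lines stand at a log2 fold change of 0.6 in either direction. TUBA1A lay farthest to the right at 1.51 and TUBA1B farthest to the left at -0.47.

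TUBA1A, the alpha isotype of newborn neurons, showed the largest change among the 10 genes. It was at 18.7, 17.9 and 16.9 CPM in shLuc and at 53.4, 49.1 and 49.7 CPM in shWDR5. Every shWDR5 library was above every shLuc library, and the spread within a group (SD 0.911 and 2.33 CPM, n = 3 each) was small beside the gap. The rise was 2.84-fold, with a log2 fold change of 1.51 ± 0.069 (SE) and an edgeR adjusted p of 2.01e-08.

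TUBA1B, the main alpha isotype of these cells, moved the other way. Its levels were 681, 600 and 570 CPM in shLuc and 480, 451 and 403 CPM in shWDR5. The groups did not overlap, and the level was 1.39-fold lower (log2 fold change -0.47 ± 0.080, adjusted p = 0.000442). TUBA1C, the second most abundant alpha isotype, was at 409, 369 and 357 CPM in shLuc and at 342, 324 and 298 CPM in shWDR5. It was 1.18-fold lower (log2 fold change -0.24 ± 0.068, adjusted p = 0.0105), a call that was lost without shWDR5 replicate 3, where the log2 fold change was -0.19 and the adjusted p 0.0517.

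These 3 genes are neighbours on chromosome 12 (hg19). TUBA1B lies on the minus strand at chr12:49521567-49525304, TUBA1A on the minus strand at chr12:49578578-49583107 and TUBA1C on the plus strand at chr12:49621709-49667121. TUBA1A is thus separated from TUBA1B by 53.3 kb and from TUBA1C by 38.6 kb. The member that rose sits between those that fell.

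TUBA4A, an alpha isotype on chromosome 2 (chr2:220114433-220119330, hg19), was at 172, 155 and 157 CPM in shLuc and at 208, 182 and 190 CPM in shWDR5. The shWDR5 libraries were all higher, by 1.20-fold (log2 fold change 0.26 ± 0.065, adjusted p = 0.00491). Its exons share 627 bases with STK16 on the other strand, and whether the counting used strand is not given in the sources used here. STK16, a kinase gene, was at means of 26.0 CPM in shLuc and 23.8 CPM in shWDR5 and was not called (adjusted p = 0.196).

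TUBB, the main beta isotype, was at 1743, 1666 and 1585 CPM in shLuc and at 1647, 1568 and 1542 CPM in shWDR5. The groups overlapped, and no difference was called (log2 fold change -0.07 ± 0.056, adjusted p = 0.314). Its 95% interval ran from 0.875-fold to 1.04-fold, so a change of the size seen for TUBA1A or TUBB3 lay outside it. TUBB4B, the second beta isotype, fell from 475, 472 and 442 CPM in shLuc to 360, 331 and 341 CPM in shWDR5. It was 1.35-fold lower (log2 fold change -0.43 ± 0.056, adjusted p = 4.4e-05), with no overlap. Its exons share 125 bases with FAM166A on the other strand, which had a mean of 1.67 reads in shLuc and 5 in shWDR5. Both TUBB and TUBB4B begin with the same 12 coding bases.

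TUBB3, the class III isotype, was at 48.2, 49.2 and 46.2 CPM in shLuc and at 92.8, 75.4 and 87.5 CPM in shWDR5. All shWDR5 libraries were higher, and the values were more spread there (SD 8.95 against 1.52 CPM, n = 3 each). The rise was 1.78-fold (log2 fold change 0.83 ± 0.076, adjusted p = 2.87e-06). Its exons lie at chr16:89988417-90002505 (hg19, plus strand), 1031 bases past the end of MC1R, a receptor gene on the same strand that was looked at after its values were seen. MC1R was at means of 7.50 CPM in shLuc and 13.5 CPM in shWDR5 (log2 fold change 0.84 ± 0.097, adjusted p = 1.72e-05), and whether transcripts spanning both genes added to the TUBB3 counts was not tested.

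TUBB2A and TUBB2B are neighbours on chromosome 6, 66.7 kb apart. TUBB2A was at 9.09, 6.99 and 8.005 CPM in shLuc and at 14.5, 13.9 and 15.1 CPM in shWDR5. It was 1.79-fold higher without overlap (log2 fold change 0.84 ± 0.096, adjusted p = 1.6e-05). TUBB2B was barely detected, at 15, 9 and 10 reads in the shLuc libraries and 21, 30 and 13 in the shWDR5 libraries. These overlapped as CPM, and the difference was not called (log2 fold change 0.70 ± 0.312, adjusted p = 0.0766). Without shWDR5 replicate 3, the library with 13 reads, TUBB2B was called as higher (log2 fold change 0.89, adjusted p = 0.0284).

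TUBB6, the beta isotype that shared no 100-base word with any other gene, was at 193, 186 and 180 CPM in shLuc and at 224, 207 and 208 CPM in shWDR5. The rise was 1.14-fold (log2 fold change 0.19 ± 0.056, adjusted p = 0.0106), the smallest of the 8 called changes. Its exons on chromosome 18 share 638 bases with AFG3L2, which lies on the other strand and was not called (means of 58.3 and 56.6 CPM, adjusted p = 0.601).

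Levels of different genes were compared per length, as RPKM. The length was that of all deposited exons of a gene, 3309 bases for TUBB6 and 2590 for TUBA4A. Their principal transcripts had 2064 and 2162 bases. The order of genes close in level, and the shares below, therefore depend on the length used. In shLuc the order from the top was TUBB (534 ± 25.4 RPKM, SD), TUBA1B (352 ± 32.8), TUBB4B (291 ± 11.3), TUBA1C (179 ± 12.8), TUBA4A (62.4 ± 3.49), TUBB6 (56.3 ± 2.03), TUBB3 (23.9 ± 0.756), TUBA1A (7.21 ± 0.368), TUBB2A (4.58 ± 0.599) and TUBB2B (0.129 ± 0.0186), each with n = 3. The order was the same in shWDR5, and in neither group did neighbours in the order overlap between libraries. What differed was the distance between them. TUBA1B stood 48.9-fold above TUBA1A in shLuc and 12.4-fold above it in shWDR5, and TUBB4B stood 12.2-fold above TUBB3 in shLuc and 5.09-fold above it in shWDR5. The 4 most abundant genes were those that fell or were not called, and of the 6 less abundant ones 5 rose.

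**Figure D2:**
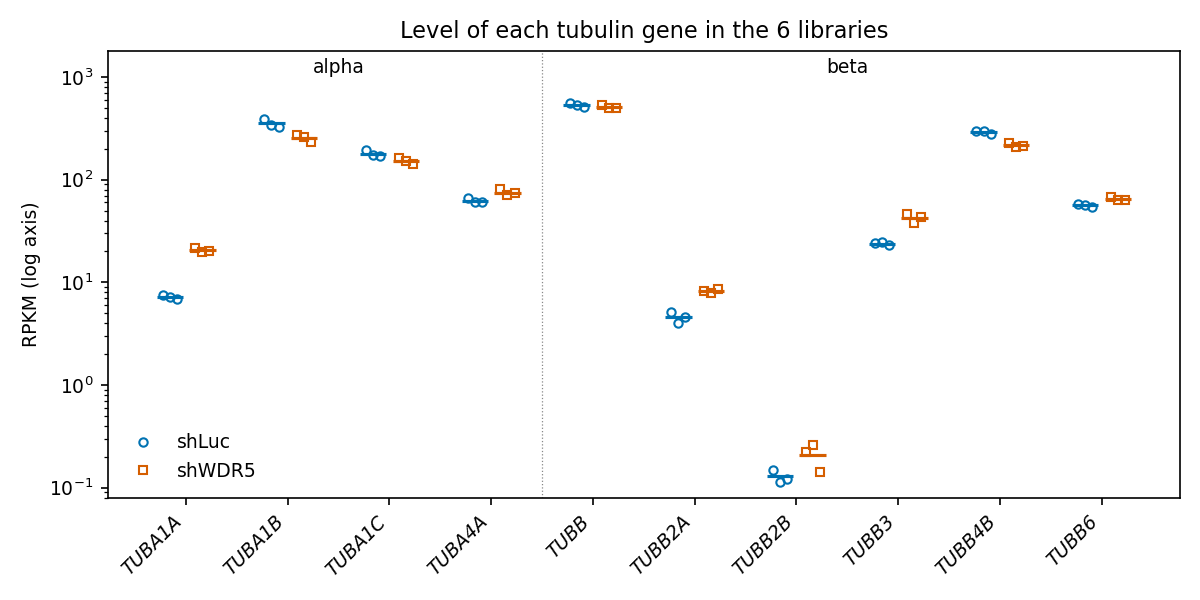
RPKM of the 10 tubulin genes on a logarithmic axis, alpha genes left and beta genes right of the dotted line; blue circles are the 3 shLuc libraries, orange squares the 3 shWDR5 libraries, and bars the group means. TUBA1A moved from a mean of 7.21 to 20.5 RPKM while TUBB stayed between 495 and 559 RPKM in all 6 libraries.

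The sums of these levels are given as a description, without a test. The 4 alpha genes added up to 656, 584 and 562 RPKM in shLuc and 538, 500 and 465 RPKM in shWDR5, a ratio of means of 0.834. The 6 beta genes added up to 946, 916 and 869 RPKM in shLuc and 877, 819 and 824 RPKM in shWDR5, a ratio of 0.923. Both sums were lower on average in shWDR5, but for the beta sum 1 shWDR5 library (877 RPKM) was above 1 shLuc library (869 RPKM). The alpha sum relative to the beta sum was 0.659 ± 0.030 in shLuc and 0.596 ± 0.028 in shWDR5 (SD, n = 3).

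Within each sum the makeup differed between the groups, and apart from TUBA1C no share of RPKM named here overlapped between them. TUBA1B made up 58.6% ± 0.671 of the alpha sum in shLuc and 50.7% ± 0.994 in shWDR5 (SD, n = 3). TUBA1A went from 1.20% ± 0.045 to 4.10% ± 0.192 and TUBA4A from 10.4% ± 0.371 to 14.9% ± 0.888, while TUBA1C held 29.8% ± 0.293 and 30.3% ± 0.273, with overlap. Among the beta genes, TUBB4B went from 32.0% ± 0.397 to 25.7% ± 0.307. The share of TUBB3 was 2.62% ± 0.071 in shLuc and 5.05% ± 0.403 in shWDR5, that of TUBB6 6.19% ± 0.055 and 7.66% ± 0.037, and that of TUBB2A 0.503% ± 0.060 and 0.984% ± 0.053. TUBB kept the largest share, 58.7% ± 0.411 and 60.6% ± 0.723. As a share of raw beta counts, with no division by length, TUBB overlapped between the groups (70.6%, 70.0% and 70.1% in shLuc and 70.4%, 71.4% and 70.3% in shWDR5), and its difference was 0.486 instead of 1.88 percentage points. A share of mRNA is not a share of protein, which was not analysed here.

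**Figure D3:**
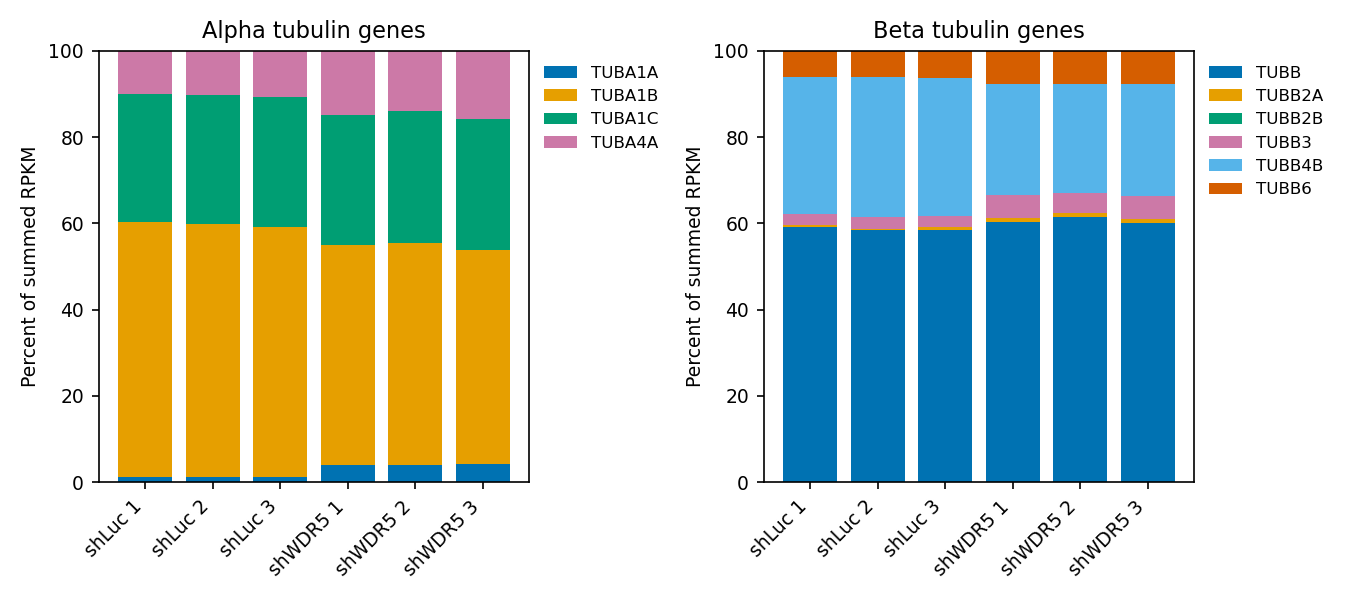
Percent of the summed RPKM taken by each gene in each library, alpha genes in the left panel and beta genes in the right. The TUBA1B segment shrank from a mean of 58.6% to 50.7% and the TUBB4B segment from 32.0% to 25.7% in the shWDR5 libraries.

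The promoters of members that moved apart are shown because TUBA1A and TUBA1B have nearly the same coding sequence but opposite changes, and TUBB2A and TUBB4B, which share 87.2% of their coding bases, also changed in opposite directions. The 250 bases before the annotated RefSeq start are printed 5′ to 3′ on the gene's own strand, with GRCh38.p14 coordinates. TUBB4B lies on the plus strand and the other 3 on the minus strand. Capitals mark CCAAT, the box read by NF-Y, and GGGCGG, the GC box read by Sp1 family factors, on either strand.
TUBA1A, chr12:49189081-49189330: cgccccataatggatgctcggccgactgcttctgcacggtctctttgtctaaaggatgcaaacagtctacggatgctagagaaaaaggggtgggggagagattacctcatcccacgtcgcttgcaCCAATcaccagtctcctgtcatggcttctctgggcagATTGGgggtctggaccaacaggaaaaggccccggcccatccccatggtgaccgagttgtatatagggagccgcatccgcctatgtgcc
TUBA1B, chr12:49131396-49131645: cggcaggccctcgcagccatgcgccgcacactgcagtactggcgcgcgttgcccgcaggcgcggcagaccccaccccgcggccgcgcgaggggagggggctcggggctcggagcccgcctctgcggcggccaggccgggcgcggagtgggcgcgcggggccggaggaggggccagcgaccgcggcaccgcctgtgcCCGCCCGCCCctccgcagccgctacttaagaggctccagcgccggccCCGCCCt
TUBB2A, chr6:3157545-3157794: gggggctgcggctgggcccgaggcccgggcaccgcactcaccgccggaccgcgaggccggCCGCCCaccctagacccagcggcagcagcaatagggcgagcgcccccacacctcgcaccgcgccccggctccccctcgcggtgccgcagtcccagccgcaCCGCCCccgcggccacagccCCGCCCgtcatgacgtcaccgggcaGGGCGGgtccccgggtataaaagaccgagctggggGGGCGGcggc
TUBB4B, chr9:137241037-137241286: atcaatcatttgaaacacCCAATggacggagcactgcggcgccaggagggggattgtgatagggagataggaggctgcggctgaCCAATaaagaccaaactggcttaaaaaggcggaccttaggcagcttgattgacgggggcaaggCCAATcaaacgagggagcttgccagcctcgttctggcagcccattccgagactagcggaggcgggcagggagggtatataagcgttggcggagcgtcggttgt
TUBA1A held 2 CCAAT and no GGGCGG, TUBA1B no CCAAT and 3 GGGCGG, TUBB2A no CCAAT and 5 GGGCGG, and TUBB4B 3 CCAAT and no GGGCGG. All 10 genes matched the RefSeq table, with 15 windows between them, of which 9 held CCAAT and 9 GGGCGG. Among all 35116 windows of this length, 32% held CCAAT and 42.6% held GGGCGG. The motifs were chosen after the expression values were seen, and a match is only a match of letters.

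Genes that work with tubulin were grouped by role and are given by their counts, to be read beside the shares over all genes above and a median log2 fold change of -0.01 over all genes tested. Of 8 CCT chaperonin genes, 6 fell, 0 rose and 2 were not called, with a median log2 fold change of -0.31. CCT7 was at 556, 520 and 509 CPM in shLuc and at 266, 261 and 241 CPM in shWDR5 (2.06-fold lower, adjusted p = 9.09e-08), and CCT4 was 1.82-fold lower (adjusted p = 2.07e-07). CCT8 and TCP1 fell by 0.32 and 0.30 on the log2 scale, with adjusted p of 0.00026 and 0.000313. None of the 6 prefoldin genes, which hand tubulin to the chaperonin, was called by the edgeR quasi-likelihood test, the edgeR exact test or DESeq2. At an unadjusted p under 0.05 the quasi-likelihood test had 1, PFDN1, and scaling by library totals alone gave 3 calls.

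Of 7 folding cofactor genes, 3 rose, 2 fell and 2 were not called. TBCB, which binds alpha tubulin, was at 47.2, 43.6 and 41.2 CPM in shLuc and at 70.2, 61.4 and 62.0 CPM in shWDR5 (1.47-fold higher, adjusted p = 5.36e-05), and TBCC rose 1.37-fold (adjusted p = 0.00156). ARL2, the small GTPase of this pathway, was 1.36-fold lower (adjusted p = 0.00125). TBCD rose 1.13-fold (adjusted p = 0.0353), a call lost under library totals alone (adjusted p = 0.129) and without shLuc replicate 2 or 3 or shWDR5 replicate 1 or 2 (adjusted p from 0.0627 to 0.123). TBCE, named after its values were seen, was at -0.19 on the log2 scale with an adjusted p of 0.0418. Its call was lost under RLE scaling, upper-quartile scaling and DESeq2 (adjusted p from 0.0615 to 0.112) and without shLuc replicate 1 or 2 or shWDR5 replicate 2 or 3 (adjusted p from 0.085 to 0.172), so that 4 of the 7 cofactor genes were called under each of those 3 settings and under library totals alone. TTC5, the reader in the feedback on tubulin mRNA, was at 9.55, 9.18 and 8.97 CPM in shLuc and at 6.15, 6.02 and 5.54 CPM in shWDR5. It was 1.56-fold lower (log2 fold change -0.65 ± 0.083, adjusted p = 4.14e-05).

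Of 12 other tubulin genes, 9 were tested. TUBG1, at means of 67.4 CPM in shLuc and 51.4 CPM in shWDR5, and TUBG2 are the gamma tubulins that seed microtubules, and they fell by 0.39 and 0.32 on the log2 scale (adjusted p = 0.000348 and 0.00396), and TUBE1, an epsilon tubulin of centrioles, by 0.54 (adjusted p = 0.00014). TUBD1, the delta tubulin, fell by 0.42 and is named after its values were seen (without shLuc replicate 3 its adjusted p was 0.0528), so that the count was 4 lower, 1 higher and 4 not called. The one that rose was TUBB1, the beta isotype of platelets, at means of 3.25 CPM in shLuc and 4.28 CPM in shWDR5 (adjusted p = 0.00563). Of 9 gamma-tubulin ring genes, 5 fell, 2 rose and 2 were not called. TUBGCP4, a ring subunit, was at 102, 101 and 98.7 CPM in shLuc and at 52.8, 55.9 and 51.5 CPM in shWDR5 (1.88-fold lower, adjusted p = 1.55e-07), and NEDD1, which targets the ring, was 1.49-fold lower (adjusted p = 0.000196). TUBGCP3 and MZT1 fell by 0.33 and 0.94 on the log2 scale (adjusted p = 0.000527 and 0.00219).

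Of 18 genes for enzymes that modify tubulin, 16 were tested, with 7 lower, 4 higher and 5 not called. AGBL5, a carboxypeptidase that trims glutamates from the tail, was at 44.1, 44.2 and 41.9 CPM in shLuc and at 23.9, 21.8 and 21.0 CPM in shWDR5 (1.95-fold lower, adjusted p = 4.12e-07). TTLL5, which adds glutamates, was 1.49-fold lower (adjusted p = 2.7e-05), and TTL, which puts the final tyrosine back on alpha tubulin, was 1.31-fold lower (adjusted p = 0.000139). TTLL3, a glycylase, rose 2.72-fold from a low level, with means of 2.85 CPM in shLuc and 7.79 CPM in shWDR5 (adjusted p = 9.07e-07).

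Microtubule-binding genes had 14 lower, 2 higher and 12 not called of 28 tested, with a median log2 fold change of -0.26. STMN3, a stathmin that binds free tubulin dimers, was at 94.1, 93.6 and 88.6 CPM in shLuc and at 20.0, 19.9 and 19.2 CPM in shWDR5. This 4.67-fold fall (log2 fold change -2.22 ± 0.060, adjusted p = 2.58e-09) was the largest change in these lists. STMN1, the main stathmin of dividing cells, was 1.95-fold lower (adjusted p = 8.85e-08). The spindle factors TPX2 and TACC3 were 1.87-fold and 1.69-fold lower (adjusted p = 1.22e-07 and 5.61e-07).

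**Figure D4:**
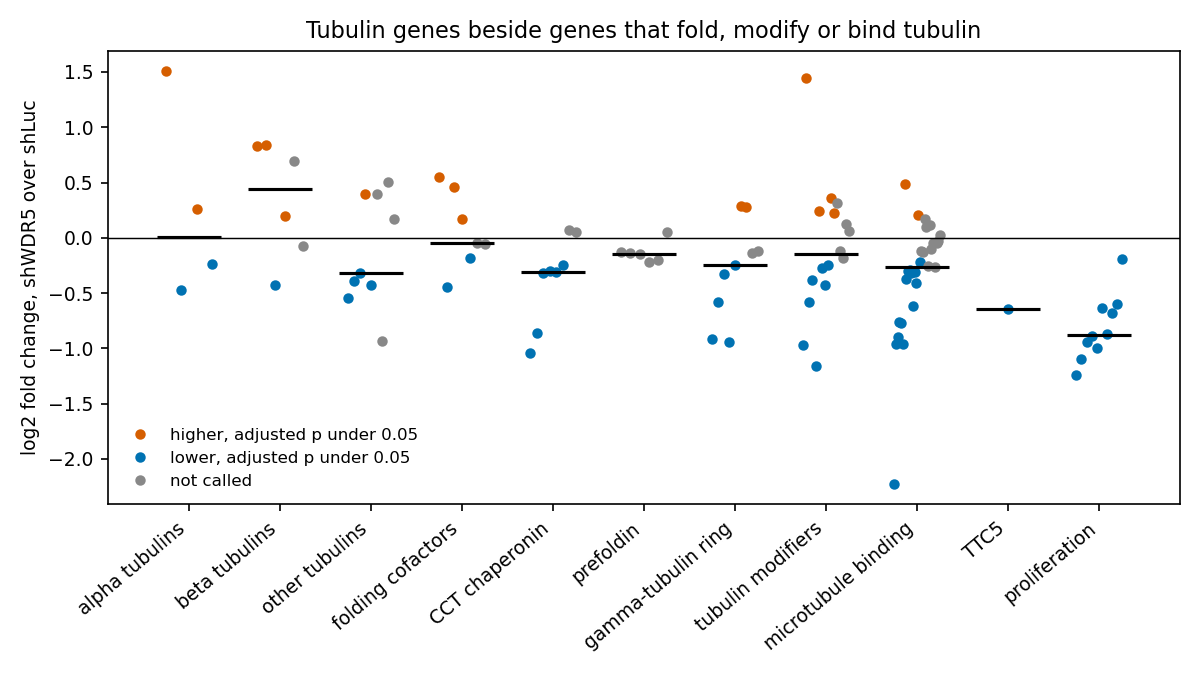
Log2 fold change in shWDR5 over shLuc of every tested gene of each list, 1 point a gene; orange is called higher, blue called lower, grey not called, and black bars are list medians. All 10 proliferation genes lie below 0, while the alpha and beta tubulins spread from -0.47 to 1.51.

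Markers of proliferation were lower in shWDR5. All 10 proliferation genes were called lower, with a median log2 fold change of -0.88 and a summed level of 1968 to 2032 CPM in shLuc and 1080 to 1114 CPM in shWDR5. MKI67 and TOP2A were 2.14-fold and 1.85-fold lower, MCM5 2.36-fold and RRM2 1.92-fold (adjusted p between 2.97e-08 and 1.48e-07). Their part in the changes of TUBA1B, TUBA1C, TUBB4B and the spindle genes was not tested.

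Basal markers moved upward, with 6 higher, 1 lower and 1 not called of 8 and a summed level of 6050 to 6292 CPM in shLuc and 8924 to 9620 CPM in shWDR5. The keratin genes KRT6A, KRT5, KRT17 and KRT14 rose 3.56-fold, 1.89-fold, 1.91-fold and 2.44-fold (adjusted p between 1.89e-07 and 7.89e-07). Of 4 luminal markers 3 were tested and 2 fell, GATA3 and FOXA1, by 0.39 and 0.41 on the log2 scale (adjusted p = 0.000916 and 0.00398), with summed levels of 61.9 to 72.3 CPM in shLuc and 47.6 to 54.1 CPM in shWDR5.

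Neuronal markers were near 0 in both groups. The 10 neuronal genes summed to 1.78 to 2.65 CPM in shLuc and 3.35 to 3.67 CPM in shWDR5, and ELAVL4, STMN2 and NEFL were at 0 in every library. Of the 2 that passed the filter, RBFOX3 rose from a mean of 1.10 to 2.93 CPM (adjusted p = 1.44e-05) and SYP fell from 0.979 to 0.297 CPM (adjusted p = 9.95e-05). Fibroblast markers summed to 21.6 to 23.7 CPM in shLuc and 14.9 to 17.8 CPM in shWDR5, nearly all of it COL1A1, which fell by 0.50 on the log2 scale (adjusted p = 0.000265). Leukocyte markers summed to 10.6 to 13.2 CPM in shLuc and 10.5 to 12.5 CPM in shWDR5, mostly CD68, and the 1 that was tested was not called.

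The genes whose log2 CPM followed TUBA1A most closely across the 6 libraries were PCAT6, SZRD1, GRINA, MAPK15 and PTCHD4, with a Pearson r from 0.99956 to 0.99985. The 6 points form 2 groups and share their libraries, so this likeness describes mainly the step between shLuc and shWDR5. MAPK15 rose by 3.49 and PTCHD4 by 0.84 on the log2 scale.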

How the data were processed

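Poly-A RNA of MCF10DCIS.com cells was made into libraries with a TruSeq kit and sequenced on an Illumina instrument, with 3 replicates of shLuc and 3 of shWDR5 as the labels give them. The authors aligned reads to hg19 with TopHat2 2.1.0 and counted them per gene with featureCounts, and the deposited values used here are these raw counts with each gene's exon length. The strand setting and the treatment of reads that map to several genes are not given in the sources used here. The authors' own edgeR 3.2.2 comparison (fold change, abundance, F, p and adjusted p) was not used.

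Counts were filtered with filterByExpr, scaled by TMM and fitted with a robust quasi-likelihood model in edgeR 4.0.16 (R 4.3.3, limma 3.58.1), with group as the only term. P-values were two-sided and adjusted by Benjamini and Hochberg over 16117 genes. A call meant an adjusted p under 0.05. CPM and RPKM used TMM-scaled library sizes, and SD is over the 3 libraries of a group. Intervals are 95% intervals of the fitted log2 fold change. Depth was 38218108 to 57640167 counts a library. Alternatives were DESeq2 1.42.0, the edgeR exact test, other scalings, no filter, a replicate term and leaving out each library. Leaving out replicate 1 of both groups was added after the data were seen.

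The members and lists were chosen with earlier results of these data known. Named genes were the 10 tubulins, WDR5, genes overlapping them, up to 4 called genes of each list by smallest adjusted p, and the 5 genes most like TUBA1A by Pearson r of log2(CPM + 0.5). Coding sequences came from GENCODE 29 and promoters from RefSeq, both on GRCh38, and gene positions from the deposited hg19 table, without conversion between builds. The ends of the alpha coding sequences are not reported here.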

Additional observations from a re-analysis of the deposited data

How the results depend on the processing

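Of 140 alternative values for the 10 tubulin genes, 138 kept their direction and their side of the threshold, as did 14 of 14 for WDR5 and 670 of 686 for the other genes tested under the alternatives, which are those named in the text and not whole lists. The one change of sign was AFG3L2, not called in any of them, at -0.0714 to 0.0031 on the log2 scale when libraries were left out. The exceptions among the tubulins both came without shWDR5 replicate 3, where TUBA1C lost its call and TUBB2B gained one. The number of tubulin genes called was 8 in every alternative, 5 higher and 3 lower except without that library, where 6 were higher and 2 lower. Over all genes the number called was 8129 to 8841 when 1 library was left out and 8982 without replicate 1 of both groups. As shares of raw counts, without division by length, the differences between shWDR5 and shLuc among the beta genes were 0.486 percentage points for TUBB, 0.307 for TUBB2A, 1.78 for TUBB3, -4.22 for TUBB4B and 1.64 for TUBB6, because long transcripts then weigh more. Of the 6 prefoldin genes, 3 were called with library totals alone and 4 with the replicate block, against 0. Fibroblast markers had 2 calls with the replicate block, against 1. The block left the tubulin calls at 5 higher and 3 lower and gave 10430 calls over all genes. The deviations of same-numbered libraries correlated by 0.555, 0.0647 and 0.199, and not every library correlated best with its own number, so the samples were not treated as paired, although the highest of these values is that of the replicate 1 libraries, which stood apart in both groups. TUBB2B, at 9 to 30 reads a library, is the member whose precision depth limits most.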
